A study of Mus musculus with 13 samples.

Results

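The nuclear-encoded respiratory chain genes of the mouse retrosplenial cortex were taken by name: all genes whose symbols begin with Ndufa, Ndufb, Ndufc, Ndufs, Ndufv, Uqcr, Cox4 to Cox8 or Atp5, together with Sdha, Sdhb, Sdhc and Sdhd. The rule found 87 members among the 15114 genes of a table of dissociated neurons and 94 among the 32285 genes of a table of tissue sections. Of the 99 names found in either table, 82 stood in both, 5 in the cell table only and 12 in the spot table only. The rule reads gene symbols alone.

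The neurons were dissociated from 3 wild-type B6 mice and form 1 group with 11 samples. Animal 1 gave the samples numbered 1 to 3, animal 2 gave 11 to 14, and animal 3 gave 15 to 18. They were microdissected from acute slices, and each cell carries an anterior, medium or posterior dissection level. The second group was 2 wild-type brain sections of 10 µm on Visium slides, called S4 and S8 here, where 1 spot covers a patch of tissue and may hold cells of several types. No treatment, and no age of the mice, is named in the labels, so the comparisons were between classes of neurons, between dissection levels and between zones of the sections.

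The respiratory chain of the inner mitochondrial membrane passes electrons from NADH through complex I, or from succinate through complex II, to complex III, cytochrome c, complex IV and oxygen, and complex V uses the resulting proton gradient to make ATP. Most subunits are encoded in the nucleus and imported, while a small core of complexes I, III, IV and V is encoded in mitochondrial DNA, and complex II is encoded in the nucleus alone. In neurons the ATP made in this way pays chiefly for ion pumping after synaptic and action potentials. The nuclear genes are known targets of the factors NRF1, GABP, the estrogen-related receptors and YY1, and of the coactivator PGC-1α, encoded by Ppargc1a.

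By their names, the members in the cell table were 37 of complex I, 4 of complex II, 8 of complex III, 14 of complex IV and 15 of complex V. The remaining 9 are not subunits by name: 4 Ndufaf genes encode assembly factors of complex I, and the other 5 are Atp5s, Atp5sl, Cox4nb, Atp5l2 and Atp5l-ps1. Cox4nb is an older name of a subunit of a membrane protein complex of the endoplasmic reticulum, and Atp5l-ps1 is a pseudogene by name. The spot table held 39 of complex I, 4 of complex II, 8 of complex III, 18 of complex IV, 17 of complex V and 8 assembly factors. Ndufa4, counted here with complex I for its name, is now regarded as a subunit of complex IV.

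The proximal promoters of 6 members are shown because these genes were called higher both in neurons led by markers of layer 5 extratelencephalic cells and in zone 1 of the sections, as described further on, and hold a match to a motif of the known factors in the 120 bases before the gene's start. In all, 25 members were called in both comparisons, and for some of them, such as Atp5a1 and Cox4i1, no promoter was given. Of the 25, 6 had a match in the bases shown. Atp5b, which was called in the same comparisons, is added as a promoter without a match. Sequences are those of RefSeq on build GRCm38.p6, on the gene's strand, 5′ to 3′, with matches in capitals.
Atp5k (chr5:108434400-108434519, minus strand): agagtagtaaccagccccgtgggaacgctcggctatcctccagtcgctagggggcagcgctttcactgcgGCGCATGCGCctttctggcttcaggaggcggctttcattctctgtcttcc
Ndufa11 (chr17:56717642-56717761, plus strand): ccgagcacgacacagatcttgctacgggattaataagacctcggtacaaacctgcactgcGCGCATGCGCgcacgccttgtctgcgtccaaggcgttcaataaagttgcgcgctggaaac
Cox5b (chr1:36691367-36691486, plus strand): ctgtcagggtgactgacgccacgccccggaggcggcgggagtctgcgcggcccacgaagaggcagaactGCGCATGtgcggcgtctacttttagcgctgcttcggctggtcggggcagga
Uqcr11 (chr10:80406822-80406941, minus strand): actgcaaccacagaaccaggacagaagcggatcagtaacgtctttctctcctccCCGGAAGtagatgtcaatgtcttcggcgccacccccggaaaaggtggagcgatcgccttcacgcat
Uqcrh (chr4:116075071-116075190, minus strand): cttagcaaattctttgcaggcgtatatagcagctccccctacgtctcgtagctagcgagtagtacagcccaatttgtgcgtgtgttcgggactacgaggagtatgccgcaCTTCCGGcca
Atp5g3 (chr2:73911327-73911446, minus strand): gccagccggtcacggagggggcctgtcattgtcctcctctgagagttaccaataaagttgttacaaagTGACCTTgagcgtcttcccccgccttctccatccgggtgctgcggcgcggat
Atp5b (chr10:128083187-128083306, plus strand): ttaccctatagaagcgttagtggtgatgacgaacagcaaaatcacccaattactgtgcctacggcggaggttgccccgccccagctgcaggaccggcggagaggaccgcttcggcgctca

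In Atp5k and Ndufa11 the match is the NRF1 core GCGCATG overlapping its own reverse complement, beginning 50 and 60 bases before the start, and in Cox5b a single GCGCATG begins 51 bases before it. Uqcr11 holds the ETS motif CCGGAAG read by GABP at 66 bases, and Uqcrh its reverse complement CTTCCGG at 10 bases. Atp5g3 holds TGACCTT, the reverse complement of the motif AAGGTCA of the estrogen-related receptors, at 52 bases. A promoter window of 300 bases, 250 before the start and 50 after it, was given for 70 of the 86 subunit genes named in either table. On either strand, GCGCATG was found in 13 of these 70 genes (18.6%) against 4.41% of the 27025 genes with a window, and CCGGAAG in 17 (24.3%) against 9.93%. AAGGTCA was found in 8 (11.4%) against 5.38%, and AAGATGG, the YY1 motif, in 11 (15.7%) against 7.28%. These matches describe letters in a window and were not tested as sites.

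Depth and composition bear on all values below. The cell table held 765 cells, 32 to 80 per sample, with total counts of 2306470 to 15974543 per sample and a median of 138331 per cell. The sections held 1022 and 951 spots with 8436518 and 6389042 counts. A count of Slc17a7, a marker of excitatory cortical neurons, was present in 756 of 765 cells, whereas Gad1 was counted in 46 and Aqp4, a marker of astrocytes, in 13. No cell name was shared between samples, and 162 spot barcodes occurred in both sections. Barcodes of that assay mark positions on a slide.

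The 87 members together took 3.42% to 4.83% of a sample's counts. Animal 1 gave 4.14%, animal 2 gave 3.95% and animal 3 gave 3.61%. Sample 3, the smallest with 32 cells, stood highest at 4.83%, and sample 15 was lowest at 3.42%. For 48 of the 87 members the highest level in CPM (counts per 1000000 counts) was in sample 3, and for 41 the lowest was in sample 15. These 2 samples come from different animals, and the preparations, animals and depths cannot be told apart in them.

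Members differed in how much they moved between samples. Atp5g3, which encodes the membrane c subunit of complex V, ran from 1332 CPM in sample 14 through a median of 1485 to 1546 in sample 12. Ndufb5, an accessory subunit of complex I, was as even, from 595 CPM in sample 1 to 699 in sample 15. Against these, Atp5k, a small membrane subunit of complex V, ran from 58.1 CPM in sample 15 through a median of 112 to 335.0 in sample 3. Ndufa3 and Ndufb2, accessory subunits of complex I, had the same lowest and highest samples, at 106 and 540.1 CPM and at 84.8 and 374 CPM. By animal, Atp5k stood at 198, 132 and 82.8 CPM in animals 1, 2 and 3, and animals were kept as a block in every comparison of neurons.

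Classes of neurons were drawn without the members and without the mitochondrially encoded genes, so that the members could not shape them. Clustering gave 11 clusters, of which 8 had enough cells in at least 2 animals to be compared. Clusters 3 (78 cells) and 7 (63 cells) had all 4 fixed markers of layer 5 extratelencephalic neurons raised (Chst8, Parm1, Bcl11b and Fezf2) and are called extratelencephalic-like. The axons of such neurons leave the telencephalon. Cluster 4 (74 cells) was layer 6 intratelencephalic-like and cluster 6 (71 cells) layer 6 corticothalamic-like by their markers. Clusters 1 (201 cells; Calb1, Penk, Ddit4l), 2 (122 cells; Thsd7a, Pygm, Hsd11b1), 5 (71 cells; S100a10, Tmem215, Ptprm) and 8 (40 cells; Calb1, Ddit4l, Cxcl14) were left unnamed and are given with their leading genes.

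Class means of the members' share of counts ran from 3.33% to 4.52%. The share was 4.52% ± 0.30 (SD, n = 2 animals) in class 7, 4.40% ± 0.44 (n = 2) in class 3 and 4.10% ± 0.22 (n = 3) in class 2. At the other end it was 3.33% ± 0.08 (n = 3) in class 1, 3.38% ± 0.07 (n = 2) in class 5 and 3.43% ± 0.03 (n = 2) in class 8. Layer 6 classes lay between, with 3.68% ± 0.11 in class 4 and 3.78% ± 0.20 in class 6 (n = 3 each). The highest class 1 value, 3.38%, lay below the lowest class 2 value, 3.85%. Class 3 and class 2 overlapped, at 4.09% and 4.70% against 3.85% to 4.23%. Each of the 5 complexes took more in class 7 than in class 1: complex V took 1.27% in class 7 against 0.84% in class 1, complex IV 0.98% against 0.81%, complex III 0.35% against 0.23%, complex II 0.15% against 0.10% and complex I 1.70% against 1.29%. With clusters 3 and 7 pooled, the share was 4.66%, 4.44% and 4.31% in animals 1, 2 and 3 against 3.86%, 3.80% and 3.50% in all other cells of the same animal.

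**Figure D1:**
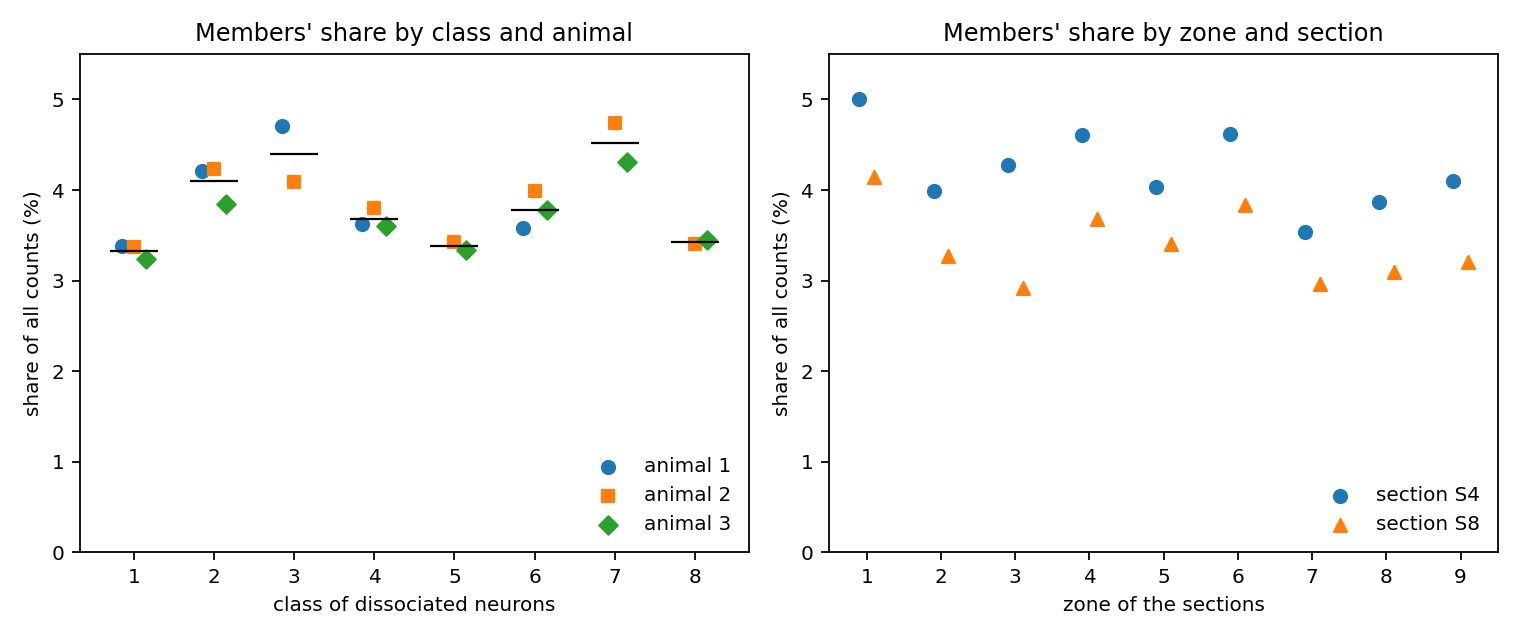
The members' share of all counts, in percent, in each class of neurons for each animal (left; lines are means over animals) and in each zone for each section (right). Classes 3 and 7 had the highest means, 4.40% and 4.52%, and zone 1 had the highest share in both sections, 5.01% and 4.14%.

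Extratelencephalic-like class 7 had 10 of 84 tested members called higher than the mean of the other classes and 0 called lower, at an edgeR adjusted p under 0.05, against 2.03% of all 13378 genes called higher there and 1.11% lower. The median log2 fold change of the members was 0.31 and that of all genes 0.06. Of the 10, 7 belong to complex V: Atp5a1, Atp5b, Atp5d and Atp5o of the catalytic head and stalk, and Atp5g3, Atp5j2 and Atp5k of the membrane part. The others were Ndufa10 and Ndufc2, accessory subunits of complex I, and Uqcrc1, a core subunit of complex III. By direction alone, 69 of 84 members were higher in class 7 in both animals that held it, against 26.0% of all genes. Without animal 1 there were 17 calls, and without animal 2 or animal 3, when the class rests on 1 animal, there were 0. Summed GABAergic markers stood at 259 and 43.1 CPM in the class, where Pvalb alone stood at 259 and 42.7. Summed astrocyte markers, which include Aldoc, stood at 332 and 267. Over all neurons Aldoc stood at 118 CPM and the other astrocyte markers at 0.0946 (Gfap) to 1.82 (Slc1a3). The part of these markers in the result was not tested.

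Uqcrc1 stood at 688 and 802 CPM in class 7 of animals 2 and 3, against means of 417 and 565 in their other classes. The log2 fold change was 0.60 ± 0.11 (SE) with an adjusted p of 0.0042. Atp5j2 stood at 537 and 338 CPM against 331 and 215 (log2 fold change 0.66 ± 0.11, adjusted p = 0.0015). In both genes the class lay above the mean of the other classes in each animal, although the level in animal 3 was lower than in animal 2 for Atp5j2 and higher for Uqcrc1. Ndufa10 stood at 689 and 745.0 CPM against 415 and 513 (0.63 ± 0.14, adjusted p = 0.0233). Atp5k, printed above, stood at 209 and 111 CPM against 123 and 77.7 (0.63 ± 0.14, adjusted p = 0.0233).

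Class 3, the other extratelencephalic-like class, had 3 of 84 members called higher and 0 lower, against 1.78% of all genes called higher and 1.2% lower. They were Sdhb, the iron-sulfur subunit of complex II, Ndufb11 and Atp5d. Sdhb stood at 623 and 679 CPM in animals 1 and 2 against 356 and 481 in their other classes (log2 fold change 0.68 ± 0.13, adjusted p = 0.0043). Ndufb11 stood at 255 and 312 CPM against 170.1 and 233 (0.58 ± 0.15, adjusted p = 0.0439). Atp5d, the delta subunit in the stalk of complex V, stood at 1747 and 1914 CPM against 1312 and 1597 (0.37 ± 0.08, adjusted p = 0.0130). The members' median was 0.23 against 0.09 for all genes. That members' median moved to 0.026 without animal 1, 0.43 without animal 2, 0.22 without animal 3 and 0.087 with sums per sample. Without animal 1 or animal 2 the class rests on 1 animal. Of the 3 calls, 0 were made without animal 1 or animal 2 and 1 without animal 3, and 46 of 84 members were higher in both animals against 25.9% of all genes.

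Classes 3 and 7 split along the animals: of the cells of class 3, 35, 41 and 2 came from animals 1, 2 and 3, and of those of class 7, 8, 24 and 31. Their depths differed as well, with medians of 100767 and 228289 counts per cell, and each stood among the other classes when the other was tested. Summed as 1 class, an alternative chosen after seeing the data, they had sums from all 3 animals. Then 34 of 84 members were called higher and 1 lower, against 5.13% and 2.66% of all genes, with a median of 0.32 against 0.11 for all genes. Leaving out animal 1, 2 or 3 left 15, 12 or 10 members called. Higher in every animal were 66 of 84 members, against 19.7% of all genes.

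In the summed class, Ndufa11, a membrane subunit of complex I, stood at 517, 483 and 425 CPM in the 3 animals against 322, 351 and 261 in the other classes (log2 fold change 0.68 ± 0.14, adjusted p = 0.0059). Sdhb stood at 604, 686 and 648 CPM against 356, 445 and 499 (0.63 ± 0.10, adjusted p = 0.00066). Uqcrc1 stood at 619, 601 and 797 CPM against 378, 403 and 565.0 (0.60 ± 0.08, adjusted p = 0.00016). Ndufa3 was called with them (0.61 ± 0.13, adjusted p = 0.0051). In each of these genes the class lay above the others in 3 of 3 animals. The 1 member called lower was Cox8a, a small subunit of complex IV, at 812, 1141 and 682 CPM against 962, 1335 and 907 (-0.27 ± 0.07, adjusted p = 0.0208).

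Class 2 had 9 of 84 members called higher and 0 lower, against 6.7% of all genes called higher and 3.54% lower. The members' median was 0.12 and that of all genes 0.10, so that the list lay close to the other genes. The 9 held 3 subunits of complex IV (Cox4i1, Cox6a1 and Cox6c), 3 of complex V (Atp5a1, Atp5d and Atp5g1), 2 of complex I (Ndufs3 and Ndufs7) and Atp5s. Cox6c stood at 768, 608 and 425 CPM in animals 1, 2 and 3 against 572, 430.2 and 322 (log2 fold change 0.45 ± 0.10, adjusted p = 0.0062). Atp5g1, which like Atp5g3 encodes the c subunit, stood at 114, 99.9 and 79.1 CPM against 80.7, 58.3 and 46.8 (0.70 ± 0.18, adjusted p = 0.0181). Ndufs3, a core subunit of complex I, stood at 209.5, 209.1 and 247 CPM against 149, 149 and 199.99 (0.43 ± 0.11, adjusted p = 0.0191). For these 3 genes all 3 animals showed the difference. Atp5s, the coupling factor s, had a log2 fold change of 1.41 ± 0.33 (adjusted p = 0.0090), with 39.7, 40.5 and 27.6 CPM against 25.2, 19.4 and 25.95, so that in animal 3 the levels were close. That fold change is larger than the CPM would give, because the fit averages the other classes on the log scale. Class 8 among them held 1 count of Atp5s. Higher in all 3 animals were 40 of 84 members, against 21.0% of all genes. Calls numbered 5, 0 and 3 without animals 1, 2 and 3. Pvalb was also higher in class 2, at 114, 243 and 127 CPM against 0.247, 37.5 and 7.73, and so were the astrocyte markers Gja1 and Slc1a3 and the hemoglobin gene Hba-a2, while Aldoc was lower. Summed astrocyte markers stood at 34.6, 75.6 and 12.4 CPM in the class, and the part of these markers in the result was not tested.

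Class 1, led by Calb1 and Penk, was the opposite case: 0 members were called higher and 5 lower, against 4.46% of all genes higher and 1.29% lower. The members' median was -0.20 while that of all genes was 0.11, and 63 of 84 members were lower in all 3 animals, against 25.4% of all genes. Atp5b, the catalytic beta subunit of complex V, stood at 923, 967 and 1129 CPM against 1248, 1391 and 1518 (log2 fold change -0.44 ± 0.08, adjusted p = 0.0019). Uqcrc1 stood at 323, 321 and 422 CPM against 441, 469 and 629 (-0.53 ± 0.10, adjusted p = 0.0034). Ndufc2 stood at 334, 328 and 331 CPM against 482, 437 and 415 (-0.43 ± 0.09, adjusted p = 0.0051). Uqcrh, the hinge subunit of complex III, stood at 226, 313 and 218 CPM against 381, 383 and 279 (-0.42 ± 0.12, adjusted p = 0.0472). In these 4 genes every animal was lower, and the remaining call was Atp5f1. Without animals 1, 2 and 3 there were 4, 0 and 1 calls.

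Class 8 held the cells with the fewest counts (median 77922). It had 4 members called lower and 0 higher, against 2.65% of all genes called higher and 2.59% lower. Atp5d stood at 1203 and 1435 CPM in animals 2 and 3 against 1699 and 1808 (log2 fold change -0.42 ± 0.08, adjusted p = 0.0056). Uqcr10, a small subunit of complex III, stood at 252 and 169.5 CPM against 367 and 259 (-0.57 ± 0.13, adjusted p = 0.0175). Ndufaf3, an assembly factor of complex I, stood at 68.5 and 69.6 CPM against 135 and 132 (-0.97 ± 0.22, adjusted p = 0.0164). Atp5s had 1 count in the class against 3001 in the others, a ratio of 0.0102 with an exact binomial counting interval of 0.000257 to 0.0566 at 95% confidence. That interval covers counting error only. Summed markers of astrocytes were also high in class 8, at 586 and 865 CPM against 9.97 to 332 in the sums of the other classes compared. Aldoc, which also encodes a glycolytic enzyme, was among the leading genes of the class and was the 1 of 4 tested astrocyte markers called higher. The part of these markers in the result was not tested. Without animal 1 there were 5 calls, and without animal 2 or animal 3 there was 1.

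Few members were called in the other classes. Class 4 had 1 called higher, Atp5s, at 23.6, 35.4 and 41.1 CPM against 29.2, 20.2 and 23.7 (log2 fold change 1.27 ± 0.33, adjusted p = 0.0244), higher in 2 of 3 animals. The fit averages the other classes on the log scale, and class 8 among them held 1 count of Atp5s. The fold change is therefore larger than the CPM shown would give. Among classes with sums from 3 animals, which leave out class 8, class 4 had 0 members called. With sums per sample in place of sums per animal the log2 fold change of Atp5s in class 4 turned to -1.02. Of all genes, 4.85% were called higher and 2.21% lower there. Class 5 had Ndufb11 lower, at 152 and 123 CPM in animals 2 and 3 against 256 and 185 (-0.69 ± 0.16, adjusted p = 0.0294), against 1.44% of all genes called higher and 0.419% lower. Its members' median, -0.20, was close to that of class 1, with 66 of 84 members lower in both animals against 37.2% of all genes. Corticothalamic-like class 6 had 2 called lower, against 3.91% of all genes called higher and 3.24% lower. They were Ndufb3 (138 CPM ± 10.8 (SD, n = 3); -0.60 ± 0.13, adjusted p = 0.0072) and Sdhb, at 229, 414 and 436 CPM against 455, 518 and 532 (-0.46 ± 0.11, adjusted p = 0.0156).

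**Figure D2:**
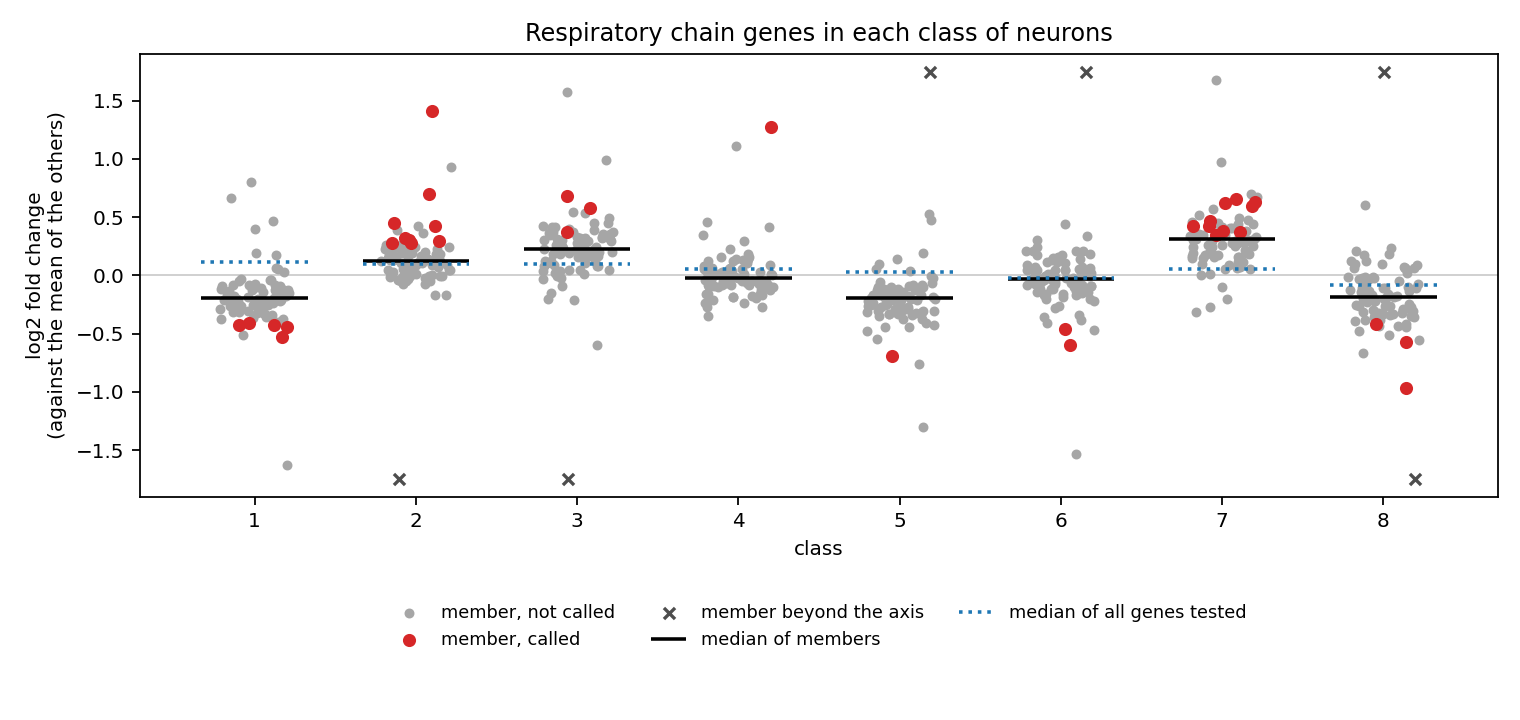
Log2 fold change of each of the 84 tested members in each class against the mean of the other classes, with medians of the members (solid) and of all genes tested (dotted). Red points were called, and crosses mark members beyond the axis, among them Atp5s in class 8, which was called. Members lay above the median of all genes in classes 3 and 7 and below it in classes 1, 5 and 8.

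Some subunits come in isoforms that differ between tissues, and the neurons held mainly 1 form of the pairs Cox6a1 and Cox6a2, Cox7a2 and Cox7a1, and Cox7b and Cox7b2. Cox6a1, the form found in most tissues, was counted in 765 of 765 cells, whereas Cox6a2, the form of heart and skeletal muscle, had 70 counts in 17 cells. Of these counts, 55 lay in 7 cells of class 2. Cox7a2 was counted in 765 cells and its muscle form Cox7a1 in 69 cells, of which 26 lay in class 7 and 11 in class 3. Neither Cox7a1 in class 7 (log2 fold change 1.68, adjusted p = 0.667) nor in class 3 (1.57, adjusted p = 0.825) passed the test. Cox7b was counted in 764 cells and Cox7b2 in 25. Of the c subunit genes of complex V, Atp5g3 was counted in 764 cells, Atp5g1 in 725 and Atp5g2 in 67. Cox4i1 was counted in 765 cells, Cox6b1 in 763, Cox8a in 765 and Ndufa4 in 765. The related Cox7a2l, which encodes a factor joining complexes III and IV, was counted in 727 cells. The sister forms Cox4i2, Cox6b2, Cox8b, Cox8c and Ndufa4l2 are not in the cell table. Cox4i1, Cox6b1, Cox8a and Ndufa4 could therefore not be set against them in the neurons. In the sections several rare forms were sparse as well, with counts in 28 spots for Cox4i2, 39 for Cox6b2, 22 for Cox7b2, 10 for Cox8b and 38 for Ndufa4l2. Cox7a1 had counts in 83 spots and Cox6a2 in 266. Cox8c had 0 of 14825560 counts, which allows a level of up to 0.202 CPM, counting error only. Atp5g2 was not rare there, with counts in 1415 of 1973 spots, at 180 and 185 CPM in S4 and S8. Its low count in the neurons therefore cannot be told apart from a difference between the assays. Together with the low counts of Atp5g2 and Atp5l-ps1, Cox6a2 was left out of the test between classes for its low counts.

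The 4 subunits of complex II were counted in 756 cells for Sdha, 747 for Sdhb, 660 for Sdhd and 522 for Sdhc. Sdha, the flavoprotein that oxidises succinate, stood at 524, 437 and 467 CPM in animals 1, 2 and 3, and Sdhb at 467, 532 and 534. Among them only Sdhb was called in a single class, higher in class 3 and lower in class 6, while Sdha had a log2 fold change of 0.44 in class 7 (adjusted p = 0.093) and -0.37 in class 1 (adjusted p = 0.087). In clusters 3 and 7 summed, Sdha was called with Sdhb (0.44 ± 0.11, adjusted p = 0.0174).

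Position along the anterior to posterior axis gave no call. In sums per animal and dissection level, 0 of 86 tested members differed between posterior and anterior cells by edgeR, with 0 at an unadjusted p under 0.05, and DESeq2 called 0. Of all genes tested, 0.0807% were called higher and 0.022% lower in posterior cells. The members' share ran from 4.05% anterior to 4.48% posterior in animal 1, from 4.03% to 3.76% in animal 2 and from 3.50% to 3.74% in animal 3, so that animal 2 went the other way. Between medium and anterior cells 0 of 86 were called, again with 0 at an unadjusted p under 0.05 and 0 by DESeq2, against 0% of all genes higher and 0.00734% lower. With the class of the neurons in the fit, 0 of 82 members were called for posterior against anterior, with 6 at an unadjusted p under 0.05 and 0 called by DESeq2, against 0.0183% of all genes higher and 0% lower. For medium against anterior in the same fit, 0 of 82 members passed by edgeR or DESeq2 and 2 had an unadjusted edgeR p under 0.05, against 0% of all genes in either direction. In the posterior against anterior comparison within classes, the smallest p was that of Atp5c1, the gamma subunit of complex V (log2 fold change -0.22 ± 0.07, adjusted p = 0.741). A p that misses the threshold does not show that the levels are alike.

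In the sections, spots were grouped into zones from their expression, again without members and mitochondrially encoded genes and with each gene centred within its section. Zones are described by leading genes and hold several cell types. In such sums, fewer cells of a type and less RNA per cell cannot be told apart. Of 11 zones, 9 with 1838 spots were compared, and 88 of the 94 members were tested. The members took 4.26% of the counts of section S4 and 3.46% of those of S8.

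Zone 1 (291 spots), led by Tshz2, Nrep, Hsd11b1, Pvalb, Slc17a6, Etv1 and Parm1, had 51 of 88 tested members called higher and 0 lower, against 6.31% and 4.73% of all 10632 genes. The median log2 fold change of members was 0.33 against 0.01 for all genes. Higher in both sections than the mean of the other zones were 83 of 88, against 30.1% of all genes. DESeq2 called 29 in this zone, and the fit with no replicate block, that is without the section as a term, called 2. In regions drawn without centring, 0 members were called in any of those that both sections held. These regions were not matched to zone 1, so they cannot test its calls. By complex, 22 of 38 tested members of complex I were called, 2 of 4 of complex II, 6 of 8 of complex III, 8 of 13 of complex IV and 13 of 17 of complex V, and 0 of the 8 assembly factors. The medians by complex were 0.33, 0.28, 0.33, 0.35 and 0.34, and 0.34 for the assembly factors, whose counts were low. The members' share was 5.01% in S4 and 4.14% in S8, against 3.53% to 4.62% and 2.91% to 3.83% in the other zones compared.

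Uqcrh, whose promoter is printed above, stood at 946 CPM in zone 1 of S4 and 755 in S8, against means of 638 and 491 in the other zones (log2 fold change 0.60 ± 0.10, adjusted p = 5.0e-06). Ndufa6, an accessory subunit of complex I, stood at 647 and 494 CPM against 431 and 353 (0.55 ± 0.10, adjusted p = 2.8e-05). Cox7b, a small subunit of complex IV, stood at 1132 and 1001 CPM against 806 and 659.8 (0.56 ± 0.10, adjusted p = 7.3e-05). For each of these the zone was above the others in both sections, and the levels were higher in S4 than in S8. Cox6a2, the muscle form that was almost absent from the neurons, had the largest difference among the called members, with 32.0 and 46.1 CPM against 17.6 and 21.9 (1.06 ± 0.21, adjusted p = 0.00029). It rested on 78 counts in the zone. Its sister Cox6a1 was not called (0.23, adjusted p = 0.134), and neither were Cox8a (0.12, adjusted p = 0.53) and Atp5d (0.05, adjusted p = 0.83), which had the smallest positive difference.

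**Figure D3:**
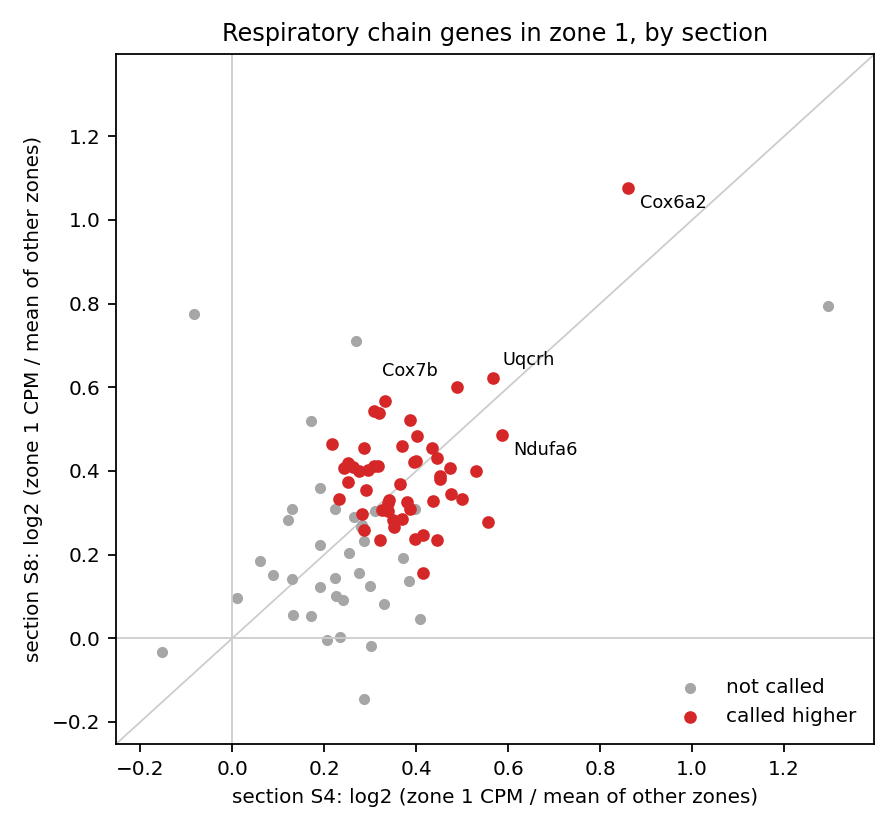
Log2 ratio of each of the 88 tested members in zone 1 to the mean of the other zones, in section S4 (horizontal) and S8 (vertical). Red points are the 51 called members, and 83 of the 88 lie above 0 in both sections.

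Other cell types moved with zone 1. The layer 5 extratelencephalic markers Fezf2, Bcl11b, Parm1 and Chst8 were called higher for 3 of 4, and Bcl11b had no positive log2 fold change. All 5 oligodendrocyte markers were called higher as well, with summed levels of 2777 and 3492 CPM in S4 and S8 against 701 to 4868 and 864 to 5920 in the other zones. So were 3 of 5 astrocyte markers (1820 and 1725 CPM against 950.2 to 2570.0 and 996 to 3045) and 4 of 4 hemoglobin and blood markers. Of 7 GABAergic markers 2 were called higher, Gad1 and Pvalb (Pvalb at 377 and 281 CPM against 155 and 99.4). Of 3 markers of oligodendrocyte precursors 1 was called higher, Olig1, and the median log2 fold change of the 3 was -0.205. Among 4 meningeal markers Ptgds was the 1 called higher, and 3 of the 4 had a positive log2 fold change. Other markers went down. Of 4 superficial markers, Cux2, Calb1 and Rasgrf2 were called lower and Lamp5 higher. Among 3 excitatory markers Slc17a7 was called lower, and Slc17a6 and Neurod6 higher. The corticothalamic markers Rprm and Crym and the microglial marker C1qb were called lower. Of 9 early response genes 5 were called lower (Fos, Fosb, Junb, Egr1 and Arc). Their part in the result was not tested. Zone 4, led by Foxp2, Ighm and oligodendrocyte genes, had the highest oligodendrocyte level, 4868 and 5920 CPM, and 1 member called higher, Uqcrc2, at 239 and 226 CPM against 189 and 188 (log2 fold change 0.32 ± 0.10, adjusted p = 0.0492), against 4.2% of all genes called higher and 3.24% lower. Of 81 ribosomal protein genes tested, 28 were called higher and 0 lower in zone 1, with a median of 0.28.

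Lower calls were fewer and lay in the remaining zones. Zone 8 (139 spots; Rorb, Rspo1) had 6 members lower, against 3.31% of all genes called higher and 1.65% lower. The 4 with the largest change were Uqcr11, at 506 and 452 CPM against 753 and 599.8 (log2 fold change -0.49 ± 0.12, adjusted p = 0.0042), Ndufa8 (-0.48 ± 0.13, adjusted p = 0.0196), Ndufv3 (-0.44 ± 0.13, adjusted p = 0.0362) and the assembly factor Ndufaf8 (-0.66 ± 0.20, adjusted p = 0.0418). Of 81 ribosomal protein genes, 9 were called lower there and 0 higher. Zone 3 (256 spots; Nnat, Calb2, Trh) had 4 of 88 lower, a smaller share than among all genes, of which 7.39% were called higher and 6.92% lower. They were Ndufs4, Ndufv1, Ndufs1 and Ndufaf4. Ndufs4, an accessory subunit, stood at 131 and 111 CPM against 187 and 162 (-0.51 ± 0.13, adjusted p = 0.0038). Ndufv1, which binds NADH, stood at 175 and 166 CPM against 253 and 199 (-0.39 ± 0.12, adjusted p = 0.0157). Zone 2 (259 spots), led by the superficial markers Rasgrf2, Cux2 and Lamp5, had 1 lower, Cox6a2, at 7.09 and 14.95 CPM against 20.7 and 25.8 (-1.06 ± 0.30, adjusted p = 0.0174), against 4.67% of all genes called higher and 2.46% lower.

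Zones 5, 6 and 9 had 0 members called by edgeR, against 3.06%, 1.36% and 0.0941% of all genes called higher and 1.51%, 0.762% and 0% called lower. At an unadjusted p under 0.05 there were 2, 30 and 6 members, and DESeq2 called 0 in each. Zone 6 (173 spots; Myl4, Hs3st2, Fezf2) came closest, with a median of 0.17 and 66 of 88 members higher in both sections against 25.3% of all genes. Its smallest adjusted p-values were those of Cox7b (0.36 ± 0.11, adjusted p = 0.066), Ndufa11 (0.36 ± 0.11, adjusted p = 0.070), Ndufv1 (0.34 ± 0.11, adjusted p = 0.104) and Atp5f1 (0.30 ± 0.10, adjusted p = 0.111).

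**Figure D4:**
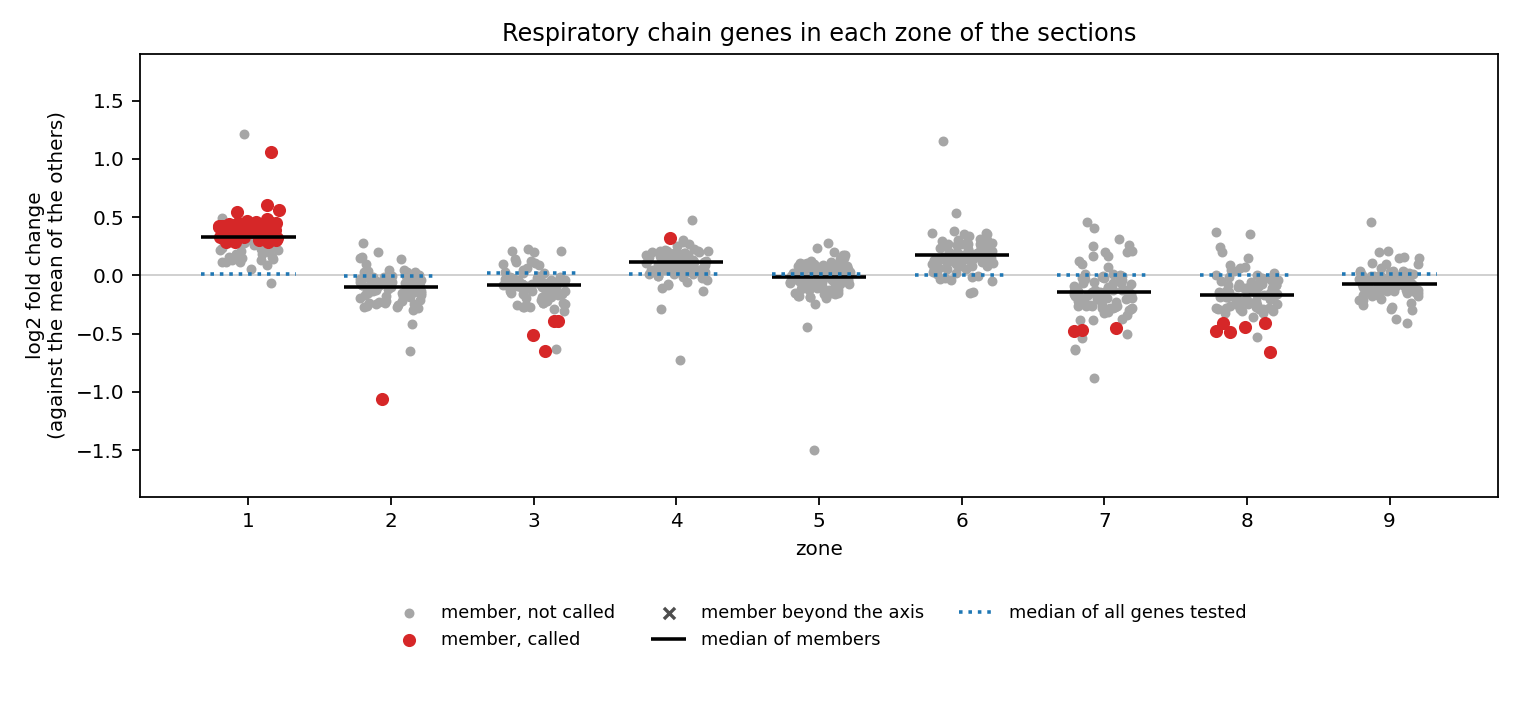
Log2 fold change of each of the 88 tested members in each zone of the sections against the mean of the other zones, with medians of members (solid) and of all genes tested (dotted). Red points were called: 51 in zone 1, all higher, and at most 6 in each of the others.

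The mitochondrially encoded subunits did not always follow the nuclear members. Zone 7 (143 spots; Ptgds, Mgp, Gfap) had 0 nuclear members called higher and 3 lower, against 5.14% of all genes called higher and 1.35% lower. These were Ndufa4, at 1255 and 802 CPM against 1637 and 1191 (log2 fold change -0.46 ± 0.11, adjusted p = 0.0050), Atp5md, a small membrane subunit of complex V (-0.47 ± 0.12, adjusted p = 0.0054), and Cox5a (-0.47 ± 0.13, adjusted p = 0.0182). The nuclear members' median was -0.14. All 13 mitochondrially encoded subunits were called higher, with a median of 0.80. They took 16.3% of counts in S4 and 14.1% in S8 in zone 7, against 9.94% to 11.96% and 7.45% to 11.9% in the other zones compared. Zone 7 was also the shallowest per spot, with a median of 4911 counts, and had all 5 astrocyte, all 3 endothelial and all 4 meningeal markers called higher, and their part in the result was not tested. In zone 1, 3 of 13 mitochondrially encoded genes were called higher (mt-Nd1, mt-Nd3 and mt-Co1), with a median of 0.25. The opposite case was zone 4, where the nuclear members' median was 0.11 and that of the mitochondrially encoded genes -0.27, with mt-Nd4l (-0.48) and mt-Atp8 (-0.54) called lower. In zone 6 the medians were 0.17 and -0.18, and all 13 mitochondrially encoded genes had a negative log2 fold change there. The difference between the genomes was not tested in any zone.

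In the neurons 7 of these mitochondrially encoded genes stood in the table, and both genomes went the same way by their medians in classes 1, 2, 3, 5, 6, 7 and 8, but not in class 4. In class 2, 4 of 7 were called higher: mt-Nd1 (log2 fold change 0.46), mt-Nd2 (0.41), mt-Nd4 (0.35) and mt-Cytb (0.30). Class 7 had mt-Nd4 called higher (0.31), class 6 had it lower (-0.27), and class 8 had mt-Nd1 and mt-Cytb lower (-0.35 and -0.37). In class 4, where the nuclear median was -0.02, mt-Cytb was called higher (0.20).

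**Figure D5:**
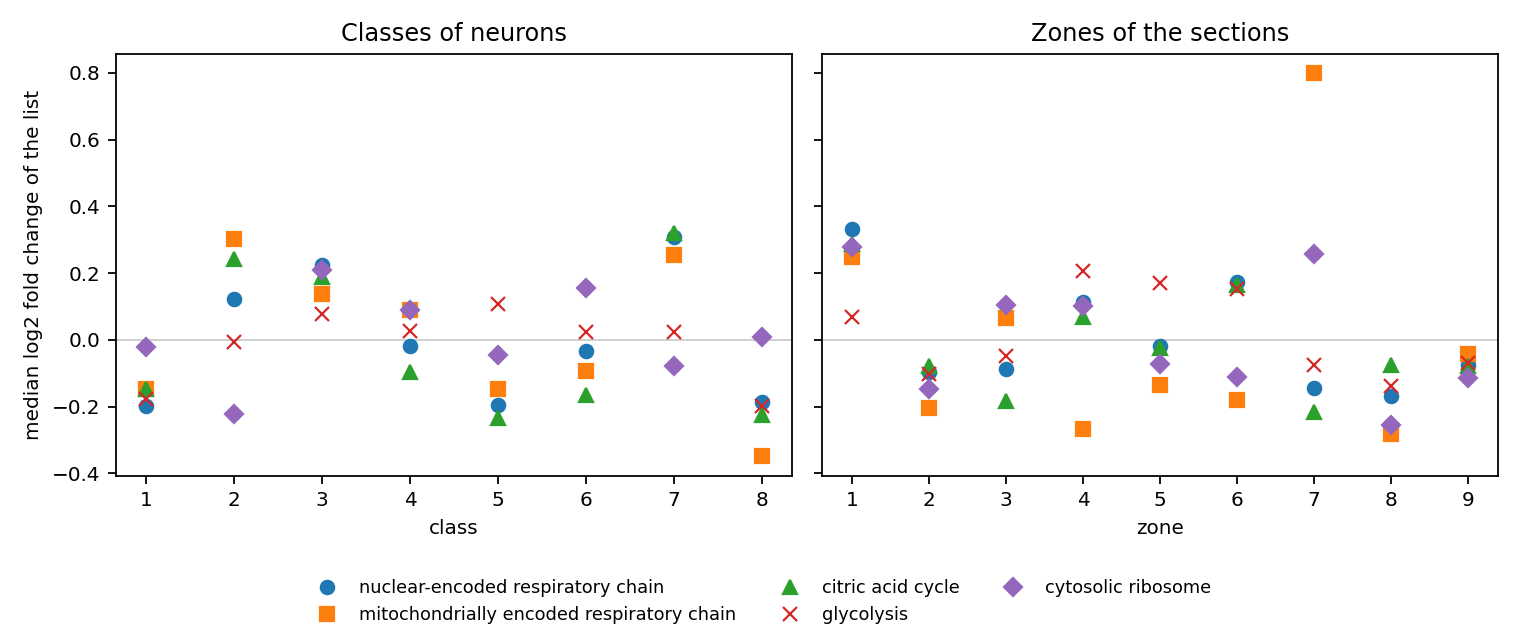
Median log2 fold change of 5 gene lists in each class of neurons (left) and each zone of the sections (right), against the mean of the other classes or zones. The mitochondrially encoded genes reach 0.80 in zone 7 while the nuclear-encoded members lie at -0.14.

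Neighbouring pathways were described by lists, to be read beside the 6.31% of all genes called higher in zone 1 and the 4.73% called lower. Of 16 genes of the citric acid cycle, 7 were called higher and 0 lower in zone 1, with Suclg1 (log2 fold change 0.58), Fh1 (0.54) and Idh3b (0.45) as the largest. Of 11 carriers of electrons, phosphate and adenine nucleotides, 6 were called higher there, among them Slc25a5, an exchanger of ADP for ATP (0.54), and Ckmt1, the mitochondrial creatine kinase (0.52). This list holds Atp5md, which is also a member. Of 33 other assembly factors of complexes, 2 were called, Cox20 (0.60) and Uqcc2 (0.52). Glycolysis was mixed, with Ldhb (0.65) and Aldoc (0.58) higher and Pfkl (-0.97) and Eno1 (-0.54) lower among 16. In class 7, Ckmt1 (0.66), Ogdh (0.64), Ldhb (0.54) and Pkm2 (0.39) were called higher and Pfkp lower (-0.59). Of all genes, 2.03% were called higher and 1.11% lower there. In class 3, Ckmt1 was called higher (1.21) and Pfkp lower (-0.69), against 1.78% and 1.2%. In class 1, Cyc1, the cytochrome c1 of complex III (-0.41), Ckmt1 (-0.35), Pkm2 (-0.33) and Eno2 (-0.26) were called lower, against 1.29% of all genes. Pkm2 and Eno2 belong to the glycolysis list. Of 16 glycolysis genes in class 4, 7 were called higher and 1 lower, against 4.85% and 2.21%.

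Among 12 known regulators in the neurons, Ppargc1a was the 1 called, in class 2, at 202, 290.0 and 170 CPM in animals 1, 2 and 3 against 84.3, 149.998 and 125 (log2 fold change 0.98 ± 0.25, adjusted p = 0.0159). As a share of the 12 this was 8.33%, near the 6.7% of all genes called higher in class 2. In class 7, where more members were called, Ppargc1a had 0.85 ± 0.29 (adjusted p = 0.157). In zone 1 both Ppargc1a (0.94 ± 0.17, adjusted p = 6.7e-05) and Esrra, an estrogen-related receptor (0.65 ± 0.17, adjusted p = 0.0046), were called higher among 10 tested, against 6.31% of all genes. Esrrg was called higher in zone 6 (1.63 ± 0.26, adjusted p = 4.3e-05) and lower in zones 2 and 3 (-1.46 ± 0.38 and -1.38 ± 0.40, adjusted p = 0.0082 and 0.0125). Esrra was called lower in zone 3 as well (-0.74 ± 0.21, adjusted p = 0.0111).

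The calls from neurons and from sections come from separate samples. Of the 10 members called higher in class 7, 7 were also called higher in zone 1 (70.0% of that list and 13.7% of the 51 of zone 1): Atp5a1, Atp5b, Atp5g3, Atp5j2, Atp5k, Atp5o and Uqcrc1. Of the 9 of class 2, 8 were tested in the sections, and 3 were also called in zone 1 (37.5%). Of the 34 called higher in clusters 3 and 7 summed, 25 were also called in zone 1 (73.5%), which are 53.2% of the 47 members of the zone 1 list that were tested in neurons. These shares are to be read beside the 51 of 88 members called in zone 1. Atp5b and Uqcrc1 were called higher in class 7 and in zone 1 and lower in class 1.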

How the data were processed

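Both deposited tables hold counts, which are whole numbers in every cell and spot; per the submitters' processing notes the builds were NCBIM37 for cells and NCBIM37 and mm10 for sections, with Seurat and Space Ranger. The aligner, the filters, the use of strand and whether the cell counts are reads or molecules are not given in the sources used here. A deposited table gave each cell's animal and sample, and 0 count columns were left without a sample. With no strand stated, members sharing reads with overlapping genes, retrocopies or pseudogenes are uncertain.

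The members and lists were chosen with earlier results of these data known. Clusters were drawn in scanpy 1.11.5 for cells and for spots (2000 variable genes, 30 components, 15 neighbours, Leiden resolution 1), leaving out members and mitochondrially encoded genes, with no doublet caller. Counts were summed per animal and class, animal and level, or section and zone (at least 10 cells or spots) and the sums entered edgeR's quasi-likelihood test (version 4.0.16 under R 4.3.3, with TMM scaling and the filterByExpr filter), 1 class against the mean of the others, with animal or section as a block and Benjamini-Hochberg adjustment over all genes; a call is an adjusted p under 0.05. SE is the log2 fold change over the root of F. DESeq2 1.42.0 was an alternative. The test was run on simulated data with known changes, for class 1 against the other classes. It recovered 4 of 100 genes changed by a log2 fold change of 0.5 and 43 of 100 changed by 1. There were 3 false calls among 13021 genes. Most changes of 0.5 were thus missed in that simulation. Its changed genes were drawn from all genes above a low mean level and not from the members, so these rates need not hold for the members. A marker was taken as leading where 25% or more of the cluster's cells held it and its mean log2 level exceeded that elsewhere by at least 1. A cluster was named when all markers of a type in the table led, enough of them were present, and no other type had more among the cluster's leading genes. Clusters 1 and 8 had the superficial markers Calb1 and Rasgrf2 leading, but these 2 were too few to name them.

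Named members were up to 4 called higher and 4 lower with the largest change per class or zone, the paralogue families and the Sdh genes, and the 4 with the smallest p where none was called; members of a called list and of the summed class named beside them, and those chosen for their spread between samples, were added after their values were seen. P-values rest on the spread of the sums left after the terms for class, level or zone and for animal or section. That spread is estimated over all classes, levels or zones of a fit together. Classes 3, 5, 7 and 8 had sums from 2 animals, the other classes compared had sums from 3, and the zones had 2 sections. Ribosomal genes exclude Rps6k kinases. Promoters were read from RefSeq tables on GRCm38.p6, used for names and sequence only.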

Additional observations from a re-analysis of the deposited data

How the results depend on the processing

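Between classes 24 members were called at least once. The number was 28 with DESeq2's median-ratio (RLE) size factors, 24 without the filter, 26 with cells thinned to 54512 counts (77 shallower cells left out), 30 with sums per sample, 19 in classes with sums from 3 animals, 32 with clusters drawn on all genes and 24 without animal 1. It was 45 by DESeq2 and 44 with clusters 3 and 7 summed, and fell to 6 without animal 3, to 1 without animal 2, to 5 with no replicate block and to 1 when calls also needed a log2 change of 1 or more in size. Without animal 2, classes 3, 5, 7 and 8 rest on 1 animal, without animal 3 classes 5, 7 and 8, and without animal 1 class 3; its spread is then assumed to be that of the other classes. In clusters 3 and 7 summed, 35 members were called, 40 by DESeq2 and 32 with RLE factors, but 15, 12 and 10 without animals 1, 2 and 3, 9 with no replicate block and 0 at a log2 fold change of at least 1. Atp5s in class 4 turned to -1.02 with sums per sample.

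Between zones 59 members were called, 54 with RLE factors, 49 without the filter, 47 with zones drawn on all genes and 58 without Gm42418 and mitochondrially encoded genes. It was 31 by DESeq2 (29 in zone 1), 2 with no replicate block, 1 at a log2 fold change of at least 1, and 0 in the 3 uncentred regions that both sections held (8, 3 and 0 members at an unadjusted p under 0.05). The cause of these changes was not tested. No dissection level comparison gave a call under any alternative run. Low counts leave Cox6a2, Atp5g2 and Atp5l-ps1 out of the test between classes and 6 rare isoforms untested in sections. The replicate block was the animal or section of the same cells; numbers 1 and 2 shared by the 2 assays pair nothing.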

Other observations

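A few members stood at very different levels in the 2 assays. Of the 82 names in both tables, 48 had a level in the sections (mean of S4 and S8) between 0.5 and 2 times the mean of the 3 animals of neurons, with a median ratio of 0.883, whereas 6 stood more than 5 times higher in the sections. Atp5g2 stood at 180.0 and 185 CPM in S4 and S8 with 91 counts in all neurons, Atp5l at 887 and 641 CPM with 831 counts, and Cox7c, a small subunit of complex IV, at 1269 and 1110 CPM with 2542 counts. The others were Cox6a2, Ndufb4 and Ndufs5, at 12.9, 11.6 and 6.30 times the level in the neurons. At the other end, Atp5d stood at 463 and 406 CPM in the sections, 0.26 times its level in the neurons. Ribosomal protein genes took 0.53% to 0.60% of counts by animal and 4.79% and 7.32% by section. The assays, their protocols and their genome builds cannot be told apart here.

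The 17 neurons with a count of Cox6a2 all had a count of Slc17a7, and 8 of them had one of Pvalb, against 132 of the other 748 cells. Gad1 was counted in 2 of the 17. Of the 17 cells, 7 lay in class 2, where Pvalb was called higher, and these held 55 of the 70 counts of Cox6a2.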
